A study of Mus musculus with 6 samples.

Results

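The 10 cathepsin genes described here are Ctsk, Ctss, Ctsl, Ctsb, Ctsd, Ctsc, Ctsh, Ctsz, Ctsa and Ctse, out of 19930 genes with a feature of their own on the array. They were chosen by name as the cathepsins of macrophages, with the feature annotated to the gene symbol standing for the gene, and each of the 10 had 1 such feature. Their expression was compared between H10 cells and C8 cells, both derived from the mouse macrophage line RAW264.7. H10 is the line that fused into multinucleated osteoclasts, and C8 is the line that did not fuse. The paper scored fusion by staining, after a longer culture with sRANKL than that of the cells on the arrays. Both lines carry Lifeact-mEGFP from a puromycin-resistance retroviral vector, were picked by limiting dilution, and were cultured for 2 days with soluble RANKL (sRANKL) at 60 ng/mL before total RNA was taken for 3 Mouse Gene 1.0 ST arrays a line. Each phenotype therefore rests on 1 line, and fusion capacity cannot be told apart from other differences between the lines. Every array came from cells treated with sRANKL. A rise or fall here therefore means a higher or lower value in H10 than in C8 cells, and responses to sRANKL were not tested. Whether a line's 3 arrays stand for separate cultures is not stated in the sources, so a p-value here reflects only how much these arrays varied, and that variation may be technical.

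Cathepsins are proteases, most of which work in the acid of endosomes and lysosomes. Cathepsins K, S, L, B, C, H and Z are cysteine proteases related to papain, cathepsins D and E are aspartic proteases, and cathepsin A is a serine carboxypeptidase. They are made as inactive proenzymes and are mostly carried to lysosomes by mannose 6-phosphate tags. The cysteine cathepsins are held in check outside lysosomes by cystatins and stefins. Osteoclasts secrete cathepsin K into the sealed, acid space under the cell, where it cuts the collagen of bone.

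The authors' RMA normalization gave log2 values, so 1 unit is a doubling of signal. The median over all features was 7.69 to 7.72 in H10 and 7.65 to 7.74 in C8 cells, and the SD of the difference between a pair of arrays was 0.20 to 0.29 in the same line and 0.30 to 0.34 across lines. Of 6 macrophage markers, 6 had a mean above the table median in H10 cells and 4 in C8 cells, and Adgre1 was the 1 that passed the test, as higher in H10; their summed log2 value was 67.49 to 68.31 in H10 and 64.41 to 64.95 in C8 cells. Of 6 osteoclast markers, 4 (Acp5, Oscar, Ocstamp and Dcstamp) lay above it in each line, and these 4 passed as higher in H10, while the mean of Calcr and of Itgb3 lay below it; the sum over the 6 was 61.39 to 62.38 in H10 and 54.55 to 56.48 in C8 cells. Of 27 markers of 7 other cell types, 6 lay above the table median in each line, the highest mean was 8.64, and 0 passed the test. Among all features, 2.12% passed in either direction. The summed log2 value of these 27 was 189.58 to 190.52 in H10 and 188.88 to 194.21 in C8 cells, and the part of other cells in the results was not tested.

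Ctsk and Ctss are immediate neighbours on chromosome 3, and both were higher in H10 cells, so the stretches just before their starts are shown, with that of Ctsd, which did not pass the test, for comparison. The RefSeq promoter table, in build GRCm38.p6, held 7 of the 10 genes. The 250 bases before the start are printed 5′ to 3′ on the gene's own strand, at chr3:95498960-95499209 (plus strand) for Ctsk, chr3:95526536-95526785 (plus strand) for Ctss and chr7:142387828-142388077 (minus strand) for Ctsd. Capitals mark matches to any of 6 motifs searched on both strands, CACGTG (the E-box of MITF and TFE factors), CATGTG (its variant), GAGGAA (the core of PU.1 sites), TGANTCA (AP-1), GAAA followed after any 2 bases by GAAA (interferon regulatory factors) and TATAAA, so a match on the other strand appears as the reverse complement.
Ctsk: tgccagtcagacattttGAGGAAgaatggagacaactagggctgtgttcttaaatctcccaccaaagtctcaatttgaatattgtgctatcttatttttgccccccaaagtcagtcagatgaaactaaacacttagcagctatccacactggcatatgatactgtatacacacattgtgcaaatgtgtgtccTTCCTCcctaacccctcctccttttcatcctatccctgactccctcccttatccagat
Ctss: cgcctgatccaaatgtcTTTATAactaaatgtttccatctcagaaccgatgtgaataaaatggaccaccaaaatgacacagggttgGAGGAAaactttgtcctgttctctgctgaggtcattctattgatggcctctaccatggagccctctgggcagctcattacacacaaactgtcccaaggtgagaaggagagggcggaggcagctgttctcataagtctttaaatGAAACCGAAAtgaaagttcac
Ctsd: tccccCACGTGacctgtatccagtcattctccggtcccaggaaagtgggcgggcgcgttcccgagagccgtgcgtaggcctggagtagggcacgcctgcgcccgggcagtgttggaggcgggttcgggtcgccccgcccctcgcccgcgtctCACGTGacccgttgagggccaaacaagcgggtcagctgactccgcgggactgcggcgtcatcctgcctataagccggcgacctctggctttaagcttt

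In the Ctsk window the only motif found was GAGGAA, which began 233 and 58 bases before the start. The Ctss window held GAGGAA at 164 bases, TATAAA at 233 bases and the interferon regulatory factor motif at 21 bases before the start. The Ctsd window held CACGTG at 245 and 98 bases before the start and no other motif. None of these matches overlapped another. GAGGAA was present in 23.3% of 32851 promoter windows of this length, the interferon regulatory factor motif in 2.98%, TATAAA in 12.4%, CACGTG in 6.02%, CATGTG in 12.3% and TGANTCA in 6.75%. Among the other members in the table, CACGTG also lay in a window of Ctsl and in 1 of the windows of Ctsa, and GAGGAA lay in the window of Ctsc. No motif was found in the window of Ctsz or in the other window of Ctsa. A match is a run of letters and was not tested as a binding site.

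Cathepsin K had the largest log2 fold change of the 10 members. The log2 value of Ctsk was 12.56, 12.60 and 12.91 on the H10 arrays, against 9.10, 9.0 and 9.27 on the C8 arrays. The lowest H10 array was 3.29 above the highest C8 array. The means were 12.69 ± 0.19 in H10 cells and 9.12 ± 0.14 in C8 cells (SD, n = 3 each), and the log2 fold change, H10 minus C8, was 3.57 (standard error 0.12, 95% interval 3.28 to 3.85, adjusted p = 0.000138 from limma). This is an 11.8-fold difference (95% interval 9.73 to 14.4) and the 9th largest rise among the 19930 genes. The study named Ctsk from the same arrays, so its direction is not independent evidence. The values in C8 cells lay between the median and the upper quartile of their arrays (9.83 to 9.94). The C8 means of Ctss, Ctsd, Ctsl, Ctsb, Ctsz and Ctsa were 11.8 to 13.84, against 9.12 for Ctsk. A rise of 3.57 from any of these means would pass the highest value on any array. That value is not a measured limit of the signal, and whether brightness narrowed the shifts of these genes was not tested. Ctsc, Ctse and Ctsh had lower C8 means (9.99, 7.69 and 6.21).

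**Figure D1:**
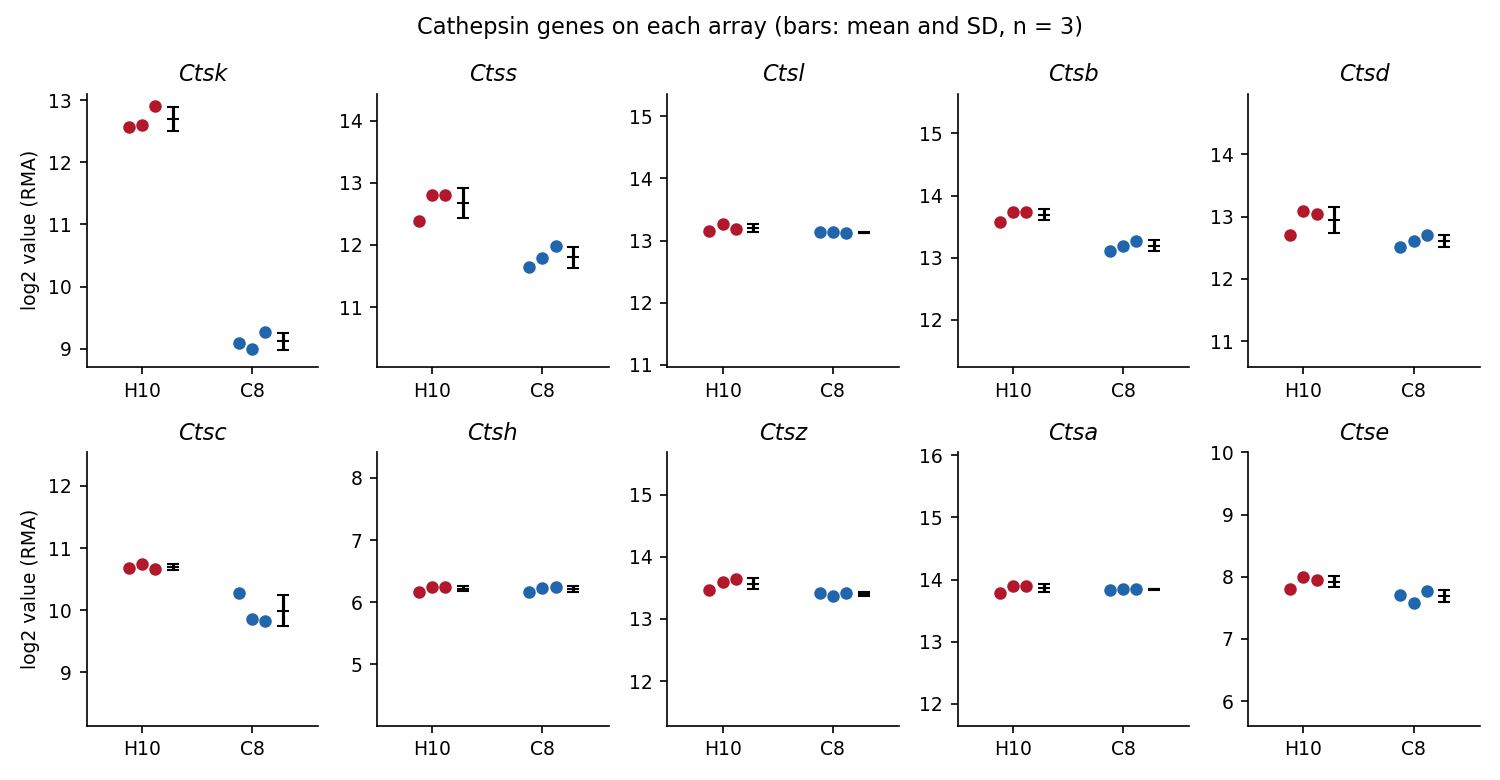
Log2 values of the 10 cathepsin genes on each of the 3 H10 arrays (red) and the 3 C8 arrays (blue), with a black mark for the mean and SD beside the points; every panel spans the same number of log2 units. Ctsk lies at 12.56 to 12.91 in H10 and 9.0 to 9.27 in C8 cells, while the points of Ctsl, Ctsh and Ctsa lie at nearly the same height in both lines.

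Of the 10 genes, 3 were higher in H10 cells at an adjusted p under 0.05 (Ctsk, Ctss and Ctsb), 0 were lower and 7 did not pass. Over all features, 1.36% passed as higher and 0.757% as lower, or 2.12% in either direction, and 2.42% passed as higher among the features above the table median on 3 or more arrays. In 7 of the 10 genes every H10 array lay above every C8 array. This was so for 6.96% of all features and for 9.94% of those above the table median on 3 or more arrays. For some of the 7 the lines barely parted, with a gap of 0.01 for Ctsl and 0.04 for Ctsz and for Ctse. The opposite order was seen in 0 of the 10 and in 10.1% of all features. The log2 fold change was above 0 for all 10, with a median of 0.29. It was above 0 for 43.5% of all features, with a median of -0.02. Most members were brighter than the array medians, and no share above 0 was computed among bright features alone. The sign of Ctsh and Ctsa turned under quantile normalization and without single arrays. Among the 9 members other than Ctsk the median was 0.23 and the range 0.01 to 0.86. The members were picked with results of these arrays known, so these shares are descriptions.

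The other cysteine cathepsins that passed were Ctss and Ctsb. Ctss encodes cathepsin S, which trims the invariant chain of MHC class II and stays active at neutral pH. Its log2 value was 12.39, 12.80 and 12.81 on the H10 arrays, against 11.64, 11.79 and 11.98 on the C8 arrays. Every H10 array was higher than every C8 array, by at least 0.41. The log2 fold change was 0.86 (standard error 0.14, 95% interval 0.52 to 1.21, adjusted p = 0.0376 from limma), a 1.82-fold difference. Ctsb encodes cathepsin B, which cuts within proteins and also trims them from the end. Ctsb had log2 values of 13.58, 13.74 and 13.74 on the H10 arrays, against 13.10, 13.19 and 13.27 on the C8 arrays. The lines did not overlap, and the log2 fold change was 0.50 (standard error 0.08, 95% interval 0.31 to 0.69, adjusted p = 0.0304 from limma), a 1.41-fold difference. Both passed without H10 replicate 1 (adjusted p = 0.02 for Ctss and 0.0442 for Ctsb) and did not when any other array was left out. Ctss then had an adjusted p of 0.0791 to 0.153 and Ctsb 0.0694 to 0.15.

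Ctsc encodes cathepsin C, the dipeptidyl peptidase that activates the serine proteases of granules. Ctsc had log2 values of 10.68, 10.75 and 10.66 on the H10 arrays, against 10.28, 9.86 and 9.82 on the C8 arrays. The H10 arrays lay within 0.09 of each other and above all C8 arrays, of which replicate 1 was the highest. The log2 fold change was 0.71 (standard error 0.13, 95% interval 0.40 to 1.02) and the adjusted p from limma was 0.0508, just outside the threshold. Without C8 replicate 1 the log2 fold change was 0.86 and the adjusted p 0.00737, and over all alternatives it was 0.00712 to 0.184. By log2 fold change the order was Ctss, Ctsc, Ctsb, and the 95% intervals of these 3 overlap.

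The remaining cysteine cathepsins, Ctsl, Ctsz and Ctsh, did not pass. Ctsl encodes cathepsin L, an endopeptidase of lysosomes. Values of Ctsl were 13.15, 13.27 and 13.18 on the H10 arrays, against 13.14, 13.14 and 13.12 on the C8 arrays. The gap between the lines was 0.01, and the log2 fold change was 0.07 (95% interval -0.08 to 0.21, adjusted p = 0.796 from limma), an interval that ends at a 1.16-fold rise. Ctsz, for cathepsin Z, a carboxypeptidase that carries an integrin-binding motif in its propeptide, had 13.46, 13.60 and 13.64 on the H10 arrays, against 13.41, 13.37 and 13.42 on the C8 arrays. The H10 arrays were all higher, by 0.04 at the closest, with a log2 fold change of 0.17 (95% interval 0.00 to 0.33, adjusted p = 0.418). Ctsh, for cathepsin H, an aminopeptidase, had 6.17, 6.25 and 6.24 on the H10 arrays, against 6.16, 6.23 and 6.25 on the C8 arrays. These values lie under the lower quartile of each array (6.38 to 6.44 in H10 and 6.34 to 6.42 in C8 cells), so expression of Ctsh in either line is not shown by these data. Its log2 fold change was 0.01 (95% interval -0.14 to 0.15, adjusted p = 0.986).

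Among the aspartic cathepsins, neither Ctsd nor Ctse passed. Ctsd encodes cathepsin D, the main aspartic protease of lysosomes. Its log2 value was 12.71, 13.09 and 13.05 on the H10 arrays, against 12.51, 12.61 and 12.71 on the C8 arrays. H10 replicate 1 had the same value as C8 replicate 3, and the log2 fold change was 0.34 (standard error 0.12, 95% interval 0.06 to 0.62, adjusted p = 0.303 from limma). Without H10 replicate 1 it was 0.46, with an adjusted p of 0.0928. Ctse encodes cathepsin E, an aspartic protease of endosomes in immune cells. Ctse had log2 values of 7.81, 7.99 and 7.95 on the H10 arrays, against 7.71, 7.58 and 7.77 on the C8 arrays. These values lie close to the array medians, the lines did not overlap, and the log2 fold change was 0.23 (95% interval 0.04 to 0.42, adjusted p = 0.315).

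The serine member, Ctsa, encodes cathepsin A, which also shields β-galactosidase and neuraminidase 1 in lysosomes. Its log2 value was 13.79, 13.90 and 13.89 on the H10 arrays, against 13.83, 13.85 and 13.85 on the C8 arrays. The lines overlapped, and the log2 fold change was 0.02 (95% interval -0.13 to 0.16, adjusted p = 0.966 from limma). All 6 values exceeded the 99th percentile of their array (13.76 to 13.82 over the arrays). Whether probes this bright understate a difference was not tested. Ctsb, Ctsz and Ctsl had no array above that percentile, but Ctsb reached 13.74 and Ctsz 13.64, close below it. The percentile is not a limit of the signal, and the same question was not tested for these genes.

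**Figure D2:**
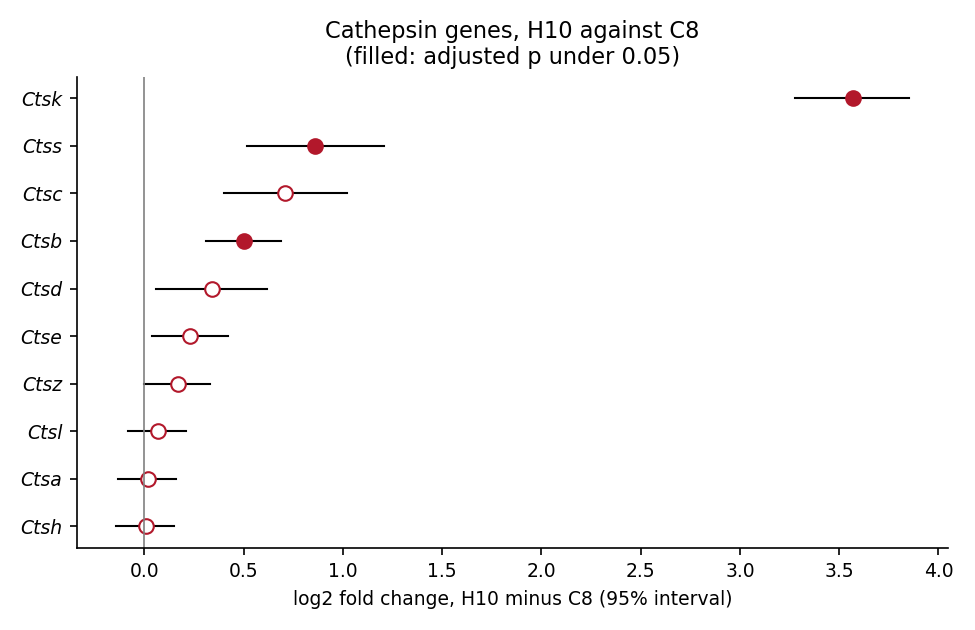
Log2 fold change of each cathepsin gene, H10 minus C8, with its 95% interval from limma, in falling order; filled points passed at an adjusted p under 0.05. Ctsk, at 3.57, lies apart from the other 9 genes, which span 0.01 to 0.86.

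The rise of Ctsk was then set against the shift of each other member, from the difference of the log2 values of Ctsk and that member on every array. The shift of Ctsk exceeded that of Ctss by 2.70 ± 0.14 on the log2 scale (standard error from the arrays, n = 3 each), a 6.51-fold ratio of fold changes. It exceeded that of Ctsc by 2.86 ± 0.22 and that of Ctsb by 3.07 ± 0.11. Whether the brightness of Ctss and Ctsb in C8 cells (means 11.8 and 13.19) narrowed their own shifts was not tested. The pair with Ctsh, whose values lay under the lower quartile of each array, adds nothing to the rise of Ctsk itself. In each of the 9 pairs all 3 H10 differences lay above all 3 C8 differences, and the exact two-sided permutation test gave p = 0.1 (0.1 after adjustment over the 9 pairs), the smallest that 3 against 3 arrays can give. All 9 pairs share the values of Ctsk, whose gap of 3.29 between the lines far exceeded the shift of any other member (0.86 at most). The order of the arrays and this p were therefore fixed beforehand, and the test adds no support.

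**Figure D3:**
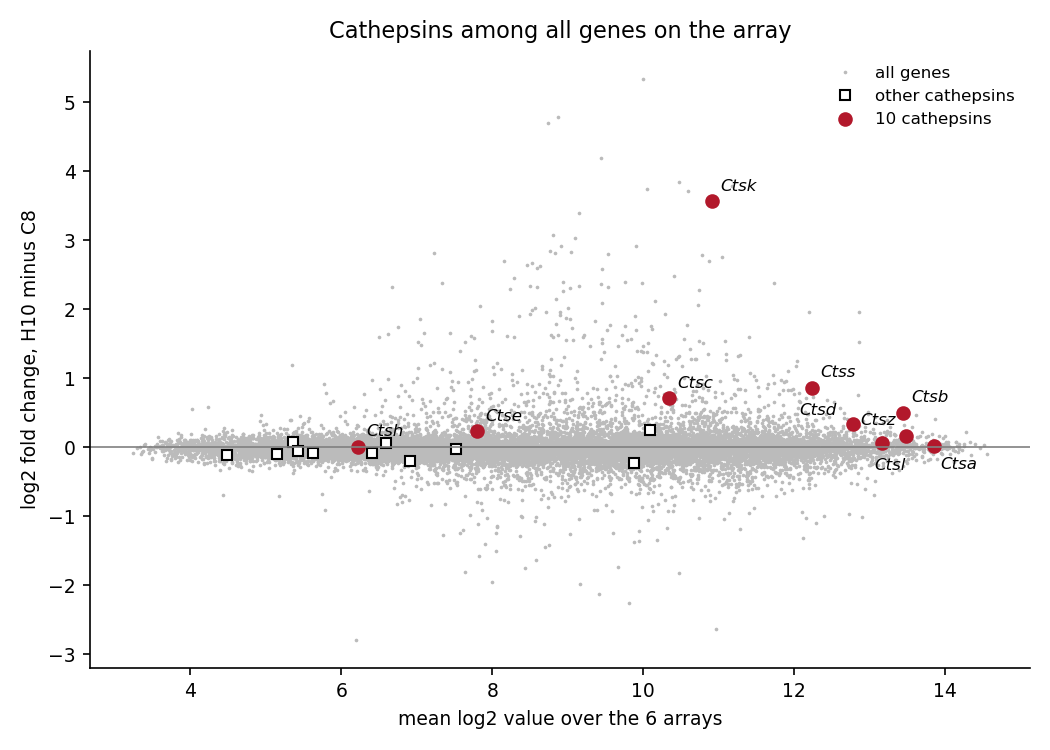
Log2 fold change, H10 minus C8, against the mean log2 value over the 6 arrays for every gene (grey), with the 10 cathepsins (red circles, named) and 11 other cathepsins (open squares). Ctsk lies among the largest rises at 3.57, and the 11 open squares lie between -0.23 and 0.25.

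The members also shared a pattern among replicates. H10 replicate 1 was the lowest of the H10 arrays in 9 of the 10 genes, all but Ctsc, while this was so for 31.8% of all features. C8 replicate 3 was the highest of the C8 arrays in 7 of the 10, against 33.2% of all features. Most members were brighter than the array medians, and no such share was computed among bright features alone. The 99th percentile was 13.78 on H10 replicate 1, against 13.82 and 13.81 on H10 replicates 2 and 3. Whether the pattern is particular to the cathepsins was therefore not tested. The median log2 value of the 9 members other than Ctsk was 12.71, 13.09 and 13.05 on the H10 arrays, against 12.51, 12.61 and 12.71 on the C8 arrays. Without the replicate 1 arrays of both lines, Ctsk was 3.62 higher on the log2 scale (adjusted p = 0.00849 from limma), and Ctss and Ctsc passed beside it while Ctsb did not (adjusted p = 0.0593). No slide, scan or culture batch was named for these arrays, so batches were not tested.

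Cathepsins outside the 10 did not pass. Of 11 other cathepsins with a feature of their own, 0 passed in either direction (1 higher and 1 lower at an unadjusted p under 0.05 from limma), and their median log2 fold change was -0.08. The share of all features that passed in either direction was 2.12%, so 0 of 11 is near that share. Ctsf, for the lysosomal cysteine protease cathepsin F, averaged 9.76 ± 0.05 in H10 and 9.99 ± 0.10 in C8 cells on the log2 scale (SD, n = 3 each; log2 fold change -0.23, adjusted p = 0.258). Ctso had 10.22 ± 0.06 in H10 and 9.96 ± 0.12 in C8 cells (log2 fold change 0.25, adjusted p = 0.251). The other 9, among them Ctsg of neutrophil granules and the placental group on chromosome 13, had means of 7.53 or less in both lines. Cts3 and Ctsm share their features on the array and were not counted.

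Ctsk and Ctss lie side by side on chromosome 3 of GRCm38.p6, with 0 genes that had a feature of their own between them. Of the 5 such genes on either side, 0 of 10 passed in either direction, and their log2 fold changes ran between -0.15 and 0.31. Only 2.12% of all features passed in either direction, so a count of 0 of 10 says little about this stretch. Arnt, next to Ctsk, shifted by -0.09 on the log2 scale (adjusted p = 0.685 from limma), and Hormad1, next to Ctss, had 0.09 (adjusted p = 0.749). The highest of the 10 was Mcl1, which blocks apoptosis, at 0.31 (adjusted p = 0.125).

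**Figure D4:**
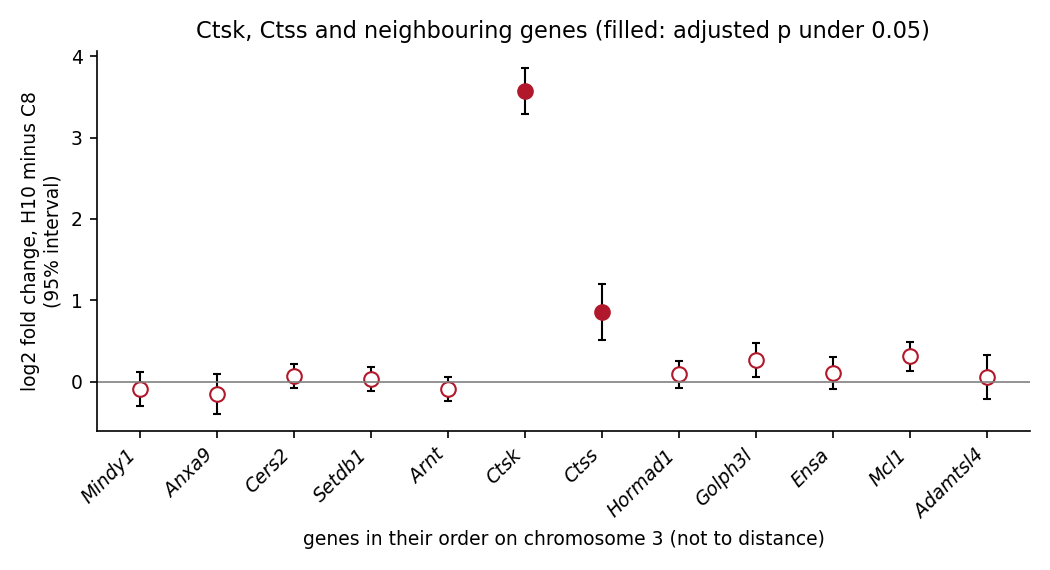
Log2 fold change, H10 minus C8, with its 95% interval from limma, for Ctsk, Ctss and the 5 genes on either side, in their order on chromosome 3. Filled points passed at an adjusted p under 0.05; these are Ctsk and Ctss, and the 10 neighbours lie between -0.15 and 0.31.

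Of 9 genes measured that process cathepsins or carry them to lysosomes, 2 rose (Igf2r and Gnptab), 1 fell (Sort1) and 6 did not pass, with a median log2 fold change of 0.09. M6pr, a mannose 6-phosphate receptor gene, was listed too but had no feature of its own. Among all features, 1.36% passed as higher and 0.757% as lower. Igf2r, the large mannose 6-phosphate receptor, had 12.02, 11.92 and 12.00 on the H10 arrays, against 11.19, 10.99 and 10.84 on the C8 arrays. The lines lay far apart, with a log2 fold change of 0.97 (adjusted p = 0.00652 from limma). Gnptab, for the phosphotransferase subunits that start the mannose 6-phosphate tag, had 12.33, 12.18 and 12.31 on the H10 arrays, against 11.51, 11.41 and 11.41 on the C8 arrays (log2 fold change 0.83, adjusted p = 0.00345). Sort1, for sortilin, a sorting receptor that does not need this tag, fell, with 8.72, 8.44 and 8.54 on the H10 arrays, against 9.58, 9.32 and 9.15 on the C8 arrays (log2 fold change -0.78, adjusted p = 0.0363). Legumain (Lgmn), which processes several procathepsins, did not pass, at 0.09 on the log2 scale (adjusted p = 0.885), and Gnptg, the third phosphotransferase subunit, 0.14 (adjusted p = 0.516). Igf2r and Gnptab passed whichever array was left out, and Sort1 lost its call whichever was left out (adjusted p = 0.0556 to 0.153) and under median centring (adjusted p = 0.0523).

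Of 8 inhibitors measured, 1 rose, 0 fell and 7 did not pass, with a median of 0.02. Stfa1, Stfa2l1 and BC100530 were listed too but had no feature of their own. The shares of all features were 1.36% higher and 0.757% lower. Cstb, for stefin B, an inhibitor of cysteine cathepsins in the cytosol, had 13.36, 13.48 and 13.44 on the H10 arrays, against 13.04, 13.02 and 13.04 on the C8 arrays. The lines did not overlap, and the log2 fold change was 0.39 (adjusted p = 0.0291 from limma; 0.054 to 0.153 with each array left out in turn). Cst3, for the secreted cystatin C, did not pass (0.08, adjusted p = 0.727), nor did Cst6 (-0.02, adjusted p = 0.979), both as log2 fold changes.

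Of 7 transcription factors known to act at cathepsin genes, 1 rose, 1 fell and 5 did not pass, against 1.36% of all features higher and 0.757% lower. Tfec, a member of the MITF family found in macrophages, had 11.36, 11.20 and 11.20 on the H10 arrays, against 10.45, 10.25 and 10.30 on the C8 arrays. The log2 fold change was 0.92 (adjusted p = 0.00415 from limma), and it passed whichever array was left out. Tfe3, another member of that family, fell by 0.35 on the log2 scale (adjusted p = 0.0419; 0.0818 to 0.203 with each array left out in turn). Mitf itself, which drives Ctsk in osteoclasts, did not pass, at 0.06 on the log2 scale (adjusted p = 0.932), and Tfeb -0.04 (adjusted p = 0.89).

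Of 12 genes that act beside cathepsin K in resorption, 4 rose, 0 fell and 8 did not pass, with a median log2 fold change of 0.43. For comparison, 1.36% of all features passed as higher and 0.757% as lower. The higher share was 2.42% among features above the table median on 3 or more arrays. Atp6v0d2, a subunit of the proton pump, had 13.70, 13.50 and 13.67 on the H10 arrays, against 12.40, 11.71 and 12.20 on the C8 arrays, with a log2 fold change of 1.52 (adjusted p = 0.0103 from limma). Clcn7, for the chloride-proton exchanger that balances the pump's charge, was 0.72 higher on the log2 scale (adjusted p = 0.0339). Slc4a2, for the bicarbonate exchanger, had 0.50 (adjusted p = 0.0448), and Acp5, for TRACP, named outside the selection rule, had 0.47 (adjusted p = 0.033). The first 2 listed that did not pass were the protease genes Mmp9, with -0.34 (adjusted p = 0.534), and Mmp14, with 0.07 (adjusted p = 0.901). All H10 arrays lay above all C8 arrays in 8 of the 12 genes and below them in 1. These orders were seen in 6.96% and 10.1% of all features. The count of 4 was 1 without H10 replicate 2 or C8 replicate 2 and 0 without H10 replicate 3 or C8 replicate 3.

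Of 7 other lysosomal peptidases, 0 passed (2 higher and 1 lower at an unadjusted p under 0.05 from limma), with a median log2 fold change of -0.02. This count is near the 2.12% of all features that passed in either direction. Tpp1, a tripeptidyl peptidase, had 0.01 (adjusted p = 0.979), and Dpp7, a dipeptidyl peptidase, 0.25 (adjusted p = 0.39). Of 8 partners and substrates of cathepsins, 0 passed (2 higher and 2 lower at an unadjusted p under 0.05), with a median of -0.02, and this count too is near that share. Neu1 and Glb1, for the neuraminidase and the β-galactosidase that bind cathepsin A, did not pass, at -0.02 on the log2 scale (adjusted p = 0.971) for Neu1 and 0.21 (adjusted p = 0.38) for Glb1. Cd74, the invariant chain cut by cathepsin S, was named after its values were seen. It had 11.26, 12.26 and 11.97 on the H10 arrays, against 12.47, 12.28 and 12.50 on the C8 arrays. All H10 arrays were lower, H10 replicate 1 by the most, and the log2 fold change was -0.59 (adjusted p = 0.418).

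**Figure D5:**
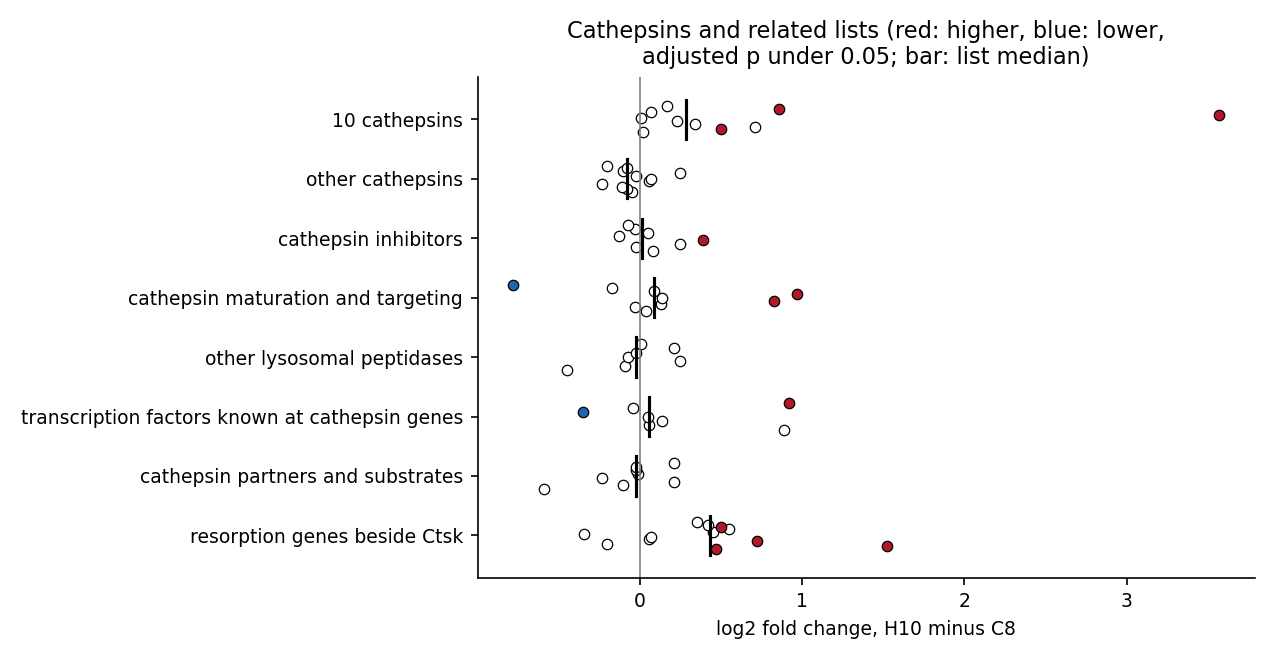
Log2 fold change, H10 minus C8, of each gene of the 10 cathepsins and of 7 related lists, with the list median as a bar; red points passed as higher and blue points as lower in H10 cells at an adjusted p under 0.05. Medians of the lists lie between -0.08 and 0.43, and Ctsk, at 3.57, is the farthest point to the right.

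The 5 genes whose log2 values followed those of Ctsk most closely over the 6 arrays were Slc22a4, Gm10419, Nxf7, Rtp4 and Csf2rb, with Pearson's r of 0.999, 0.9989, 0.9988, 0.9978 and 0.9977. The arrays form a cluster for each line, so any gene that separates the lines scores high, and 54 genes had r over 0.99. The log2 fold changes of the 5, in the same order, were 0.62, 0.94, 1.75, 3.84 and 1.51.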

How the data were processed

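Total RNA of H10 and C8 cells was hybridized to 6 Affymetrix Mouse Gene 1.0 ST arrays, 3 per line. RMA was run by the authors, and the deposited values are log2 values for 35545 features, with 2 decimals and 0 missing. Affymetrix Expression Console is the tool named by the submitters' processing notes (version not given in the sources used here). Arrays were grouped by cell line from the labels. The platform annotation gave 1 symbol to 21781 features, several to 1621 and none to 12143, and only the first kind was used as genes; for a gene with more than 1 feature, the brightest was used.

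H10 was compared to C8 by limma 3.58.1 under R 4.3.3 (lmFit and eBayes, two-sided) on all features, unfiltered, with Benjamini-Hochberg adjustment over all of them; 4 residual and 2.57 prior degrees of freedom gave the 95% intervals. The fit recovered 97 of 100 simulated 2-fold changes and 98 of 100 of 5-fold. The simulated noise was normal, independent between features and drawn with the variances that limma had already evened out. It therefore checks the code and does not measure the sensitivity on these arrays. Exact permutation tests used scipy 1.17.1. The members and lists were chosen with earlier results of these data known. All members are named; from each other list, up to 3 genes a direction that passed and the first 2 that did not. Alternatives left out arrays or changed the block, normalization, filter, variance model, adjustment or threshold. Those for the related lists were added after seeing the data. Scanner intensities and background were not analysed here.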

Additional observations from a re-analysis of the deposited data

How the results depend on the processing

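The rise of Ctsk passed under all 15 alternatives with a test, with a log2 fold change of 3.46 to 3.64 when 1 array was left out and an adjusted p from limma of 6.64e-07 to 0.00849 over them; the ratio of mean linear values, which has no test, gave 3.57 on the log2 scale. The count of members higher in H10 cells, 3, was 1 to 3 when 1 array was left out, with Ctsk the 1 left when replicate 2 or 3 of either line was missing, and 1, again Ctsk, at an adjusted p under 0.01. Without C8 replicate 1 the count was 2, Ctsk and Ctsc. It was 4, with Ctsc added, under quantile normalization, a model with an intensity trend and robust prior, the filter on dim features, adjustment over a single feature per gene and the fit on gene means; the last 3 test fewer features. The count of lower members was 0 under each of 15 alternatives. Each member has 1 feature, so averaging features changed only the rows that were fitted and adjusted over.

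The log2 fold change of Ctsh, 0.01, was -0.02 to 0.032 when 1 array was left out (-0.0083 and -0.0033 without H10 replicate 2 and 3, -0.02 without C8 replicate 1) and -0.01 under quantile normalization, and that of Ctsa, 0.02, was -0.0033 to 0.05 when 1 array was left out (lowest without H10 replicate 2) and -0.00056 under quantile normalization. The filter on dim features leaves Ctsh out. Of the related genes that passed, Igf2r, Gnptab and Tfec passed under all 15 alternatives, while Cstb, Sort1 and Tfe3 did not pass when any 1 array was left out or under median centring. Resorption genes that rose numbered 4, 2 under median centring, and 8 with the filter or the fit on gene means.

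Arrays of the same replicate number did not deviate together (r of deviations 0.166, -0.004 and -0.121 for numbers 1, 2 and 3), so the numbers were not taken as pairs. With the replicate block, 2 members were higher, Ctsk (log2 fold change 3.57, adjusted p = 0.00571) and Ctss, and 0 were lower; Ctsb had an adjusted p of 0.0622, and 1 resorption gene rose. No paired value was computed for the differences between Ctsk and the other members, where 3 against 3 arrays cannot pass. The number of arrays limits the precision, and signal over background was not measured.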
